A study of Mus musculus with 8 samples.

Results

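The pluripotency transcription factors described here are the 10 genes Pou5f1, Sox2, Sox15, Nanog, Klf4, Klf5, Klf17, Esrrb, Sall4 and Tfcp2l1. They were taken by exact symbol from the deposited table, with the transcript rows of a symbol summed, and all 10 were found among the 34976 symbols used. Embryos of the outbred CF-1 mouse were injected at the early 1-cell stage with a scrambled control morpholino or with a morpholino directed at the transcription start site of Med13, and their RNA was measured at the late 2-cell stage. A morpholino is a synthetic antisense molecule that pairs with an RNA and keeps it from being used. All embryos of both groups were therefore injected, and the labels give no genetic deletion in either. Each of the 4 libraries per group came from a pool of 40 embryos of an independent collection, so p-values measure the spread between collections. MED13 belongs to the Mediator complex, and the series' title names zygotic genome activation and postimplantation development as its subject.

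Pluripotency is the capacity of early embryonic cells to form every tissue of the body, and in the mouse it is held by a small set of transcription factors that bind one another's regulatory regions. OCT4, the product of Pou5f1, and SOX2 bind DNA side by side at a composite octamer and SOX element, and NANOG, KLF4, KLF5, ESRRB, SALL4 and TFCP2L1 maintain the same network in embryonic stem cells. The 2-cell embryo precedes the blastocyst in which this network is known best, and at that stage maternal RNA is being lost while the zygotic genome is being switched on.

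Of the 10 factors, Sox15 and Nanog fell and Pou5f1 rose after Med13 morpholino, and the other factors did not pass the test or were too low to be tested. The values are FPKM (fragments scaled to transcript length and to the library's total) and 8 of the 10 factors had a mean summed FPKM of at least 1 over the 8 libraries, the minimum for the test. In limma's moderated test with Benjamini-Hochberg adjustment over 11755 genes, 3 of these 8 had an adjusted p below 0.05, with 1 higher and 2 lower. Over all genes tested, 17.1% were called, 9.29% as higher and 7.81% as lower. With 8 factors the members' share of 37.5% has little precision. Without scrambled replicate 2 the same 3 factors were called. Only 1, Sox15, was called without scrambled replicate 3 or without Med13 morpholino replicate 2. The median log2 fold change of the 8 was -0.17, beside -0.06 for all genes tested.

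The first principal component (48.6% of the variance) set the groups apart, and scrambled replicate 2 lay apart on the second (a score of 39.6, where the others ran from -23.8 to 9.47). Library totals read back from the values were 31378977 to 48050262 fragments. Med13 mRNA (GRCm38 chromosome 11, 86267033 to 86357602, minus strand) stood at 41.3 ± 4.31 and 42.2 ± 2.14 summed FPKM (SD, n = 4 each) in scrambled and Med13 morpholino embryos. The exact permutation test over 70 assignments gave a two-sided p of 0.629, and because a morpholino can block translation without removing the mRNA, this level does not check the labels. The 2-cell genes named as markers were present in both groups, and 10 of 13 tested rose and 1 fell (Eif1a, log2 fold change -0.63, named after its values were seen), with a summed level of 188 to 302 FPKM in scrambled and 381 to 651 FPKM in Med13 morpholino libraries. Of 13 tested oocyte genes 7 rose and none fell, with a summed level of 110 to 137 FPKM against 377 to 494 FPKM. For both lists, the shares over all genes tested were 9.29% higher and 7.81% lower. Among the listed genes that rose were Zfp352, Tdpoz3, Tdpoz5 and Tmem92 of the 2-cell list (log2 fold changes 1.66, 1.89, 1.00 and 1.13) and Tle6, Oosp1, Bmp15 and Gdf9 of the oocyte list (3.09, 2.27, 2.10 and 2.02). These changes accompany every result below, and their part in the levels of the pluripotency factors was not tested. In pooled embryos, fewer cells that express a gene and less of its RNA per cell cannot be told apart.

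Cumulus markers and the blood markers that could be read were low, whereas the sperm and oviduct lists each held a gene at a higher level. The 12 cumulus and granulosa genes summed to 1.07 to 2.36 FPKM in scrambled and 1.03 to 1.53 FPKM in Med13 morpholino libraries, and none of them reached a mean of 1. The 8 blood and immune genes in the rows used summed to 3.13 to 5.36 and 3.01 to 5.74 FPKM, with Itgam and Cd52 the most abundant (1.84 and 1.12 FPKM in scrambled, 1.37 and 1.14 FPKM in Med13 morpholino embryos). The listed haemoglobin genes Hba-a1, Hba-a2, Hbb-bs and Hbb-bt could not be read, because the rows used hold no symbol with a hyphen. The sperm list summed to 5.57 to 12.4 and 12.4 to 18.5 FPKM, most of it from Odf2 (9.50 and 15.4 FPKM), a gene of centrioles as well as of the sperm tail. The oviduct list summed to 31.1 to 42.6 and 36.7 to 43.0 FPKM, most of it from the epithelial adhesion gene Epcam (23.5 and 29.5 FPKM), and its 1 called gene was Ovgp1, which fell (log2 fold change -0.48, a call that held in 1 of 8 fits with a library left out, the one without scrambled replicate 1, with adjusted p of 0.0566 to 0.125 in the others). Among defining markers of later lineages, Cdx2 and Eomes of trophectoderm reached at most 0.05 and 0.51 FPKM in any library. Sox17 and Gata6 of primitive endoderm reached at most 0.19 and 1.08 FPKM. The trophectoderm marker Gata3 was higher, with means of 2.59 FPKM in scrambled and 0.83 FPKM in Med13 morpholino embryos. Its highest value was 6.82 FPKM, in scrambled replicate 2. Tead4 and Gata4 of the same lists stood at 24.1 and 21.8 FPKM in scrambled embryos. No listed gene found in the rows used was at 0 in all 8 libraries.

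The largest change was in Sox15, which encodes an HMG-box factor closely related to SOX2 and able to pair with OCT4 on DNA. Sox15 (ENSMUSG00000041287, GRCm38 chromosome 11, 69655314 to 69656727, plus strand) has a single transcript row, so its sum counts no fragment more than once. It stood at 11.8, 9.45, 29.1 and 27.5 FPKM in scrambled replicates 1 to 4 and at 2.06, 2.25, 4.26 and 5.45 FPKM in Med13 morpholino replicates 1 to 4. Every Med13 morpholino library lay below every scrambled library, and within the scrambled group replicates 3 and 4 were more than double replicates 1 and 2. The means were 19.5 ± 10.3 and 3.50 ± 1.63 FPKM (SD, n = 4 each), a ratio of 5.56. On the log2(FPKM + 1) scale, which understates changes of low genes, the fold change was -2.10 ± 0.35 (SE; limma adjusted p = 0.0026), a fold of 0.23 with a 95% interval of 0.14 to 0.40. Of its exonic bases, 3.6% are shared with Mpdu1 on the opposite strand, and the strand setting is not known here. The values rest on 67 to 1205 fragments per library, and the call held in all 8 fits that left out 1 library (log2 fold changes -2.37 to -1.87).

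Nanog encodes a homeodomain protein that marks the inner cell mass and holds stem cells in the undifferentiated state, and its mRNA was low here in both groups. Its 3 transcript rows (ENSMUSG00000012396, GRCm38 chromosome 6, 122707489 to 122714633, plus strand) had nearly equal FPKM, so a fragment of their shared exons may be counted up to 3 times and the sum was 2.99 times the highest row. The summed level was 4.14, 5.32, 4.95 and 4.35 FPKM in scrambled replicates 1 to 4 and 2.85, 3.10, 2.28 and 3.08 FPKM in Med13 morpholino replicates 1 to 4. The groups did not overlap, and the spread within each was narrow (coefficients of variation of 11.6% and 13.5%). The means were 4.69 ± 0.544 and 2.83 ± 0.382 FPKM (SD, n = 4 each), with a log2 fold change of -0.57 ± 0.15 (SE; limma adjusted p = 0.0205), a fold of 0.67 with a 95% interval of 0.54 to 0.84. This fold is a ratio of FPKM + 1, and the ratio of the mean FPKM was 0.60. In a fit across 21052 transcript rows, of which 15.7% were called, all 3 Nanog rows fell (log2 fold changes -0.42, -0.39 and -0.39). The highest row rested on 48 to 169.5 fragments per library, and 4.8% of its 50-base stretches occur in transcripts of other genes. Among these, Map1lc3b and Nasp stood at 212 and 124 FPKM in scrambled and 197 and 87.1 FPKM in Med13 morpholino embryos, and their part in the Nanog values was not tested. The call was lost without scrambled replicate 3, Med13 morpholino replicate 2 or Med13 morpholino replicate 3 (limma adjusted p = 0.0612, 0.0508 and 0.0692), with log2 fold changes of -0.55, -0.61 and -0.50.

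Pou5f1, whose OCT4 protein is present from the egg onward and is needed for the inner cell mass, moved the other way. Pou5f1 (ENSMUSG00000024406, GRCm38 chromosome 17, 35506018 to 35510772, plus strand) stood at 3.58, 1.30, 1.09 and 2.31 summed FPKM in scrambled replicates 1 to 4 and at 5.26, 3.70, 3.83 and 4.61 FPKM in Med13 morpholino replicates 1 to 4. The groups did not overlap, but scrambled replicate 1 came close to the lowest Med13 morpholino library. The means were 2.07 ± 1.14 and 4.35 ± 0.728 FPKM (SD, n = 4 each), with a log2 fold change of 0.86 ± 0.23 (SE; limma adjusted p = 0.0239), a fold of 1.82 with a 95% interval of 1.29 to 2.57. This fold is again of FPKM + 1, and the ratio of the mean FPKM was 2.10. Of the 6 transcript rows of Pou5f1, 1 was abundant enough to be tested, the model of 1362 bases. That row went from 1.27 ± 0.636 to 3.08 ± 0.722 FPKM (SD, n = 4 each), a log2 fold change of 0.87 (SE 0.20; adjusted p = 0.0110 by limma over transcript rows), on 48 to 210 fragments per library. The call on the sum was lost with no filter on low values and without scrambled replicate 3, Med13 morpholino replicate 1 or Med13 morpholino replicate 2 (limma adjusted p = 0.0957, 0.0684, 0.0702 and 0.0502). Of all 50-base stretches in the 1362-base model, 15.9% also occur in transcripts of Gm19553 or Gm5712, and Gm19553, which lies antisense, stood at 0.08 FPKM in each group.

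**Figure D1:**
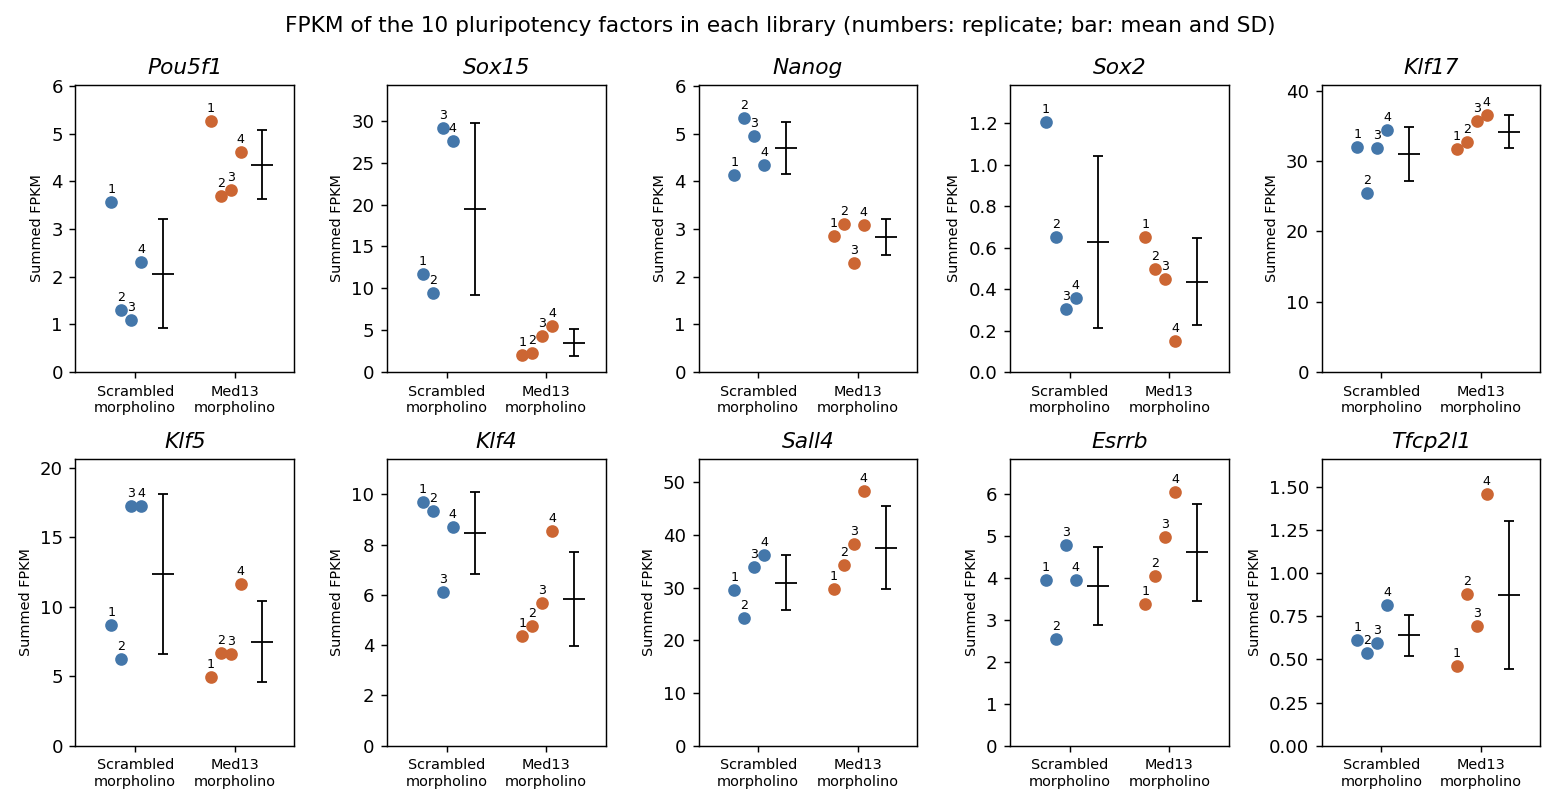
Summed FPKM of the 10 factors (vertical axis, from 0) in each library, with scrambled libraries in blue, Med13 morpholino libraries in orange, replicate numbers above the points, and the mean with SD beside them (n = 4 each). The 3 genes whose groups do not overlap are Pou5f1, Sox15 and Nanog.

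In the plot of FPKM by library, those 3 genes part the groups completely, a pattern found in 21.6% of all genes tested (10.4% higher, 11.1% lower). The exact permutation test over 70 assignments gave each of the 3 a two-sided p of 0.0286, the smallest this design allows. Complete separation of the groups always gives this p, so it adds no support beyond the separation itself. The ratio of Nanog to Pou5f1 (highest rows) was 0.64 to 2.17 in scrambled and 0.24 to 0.41 in Med13 morpholino libraries. Because Nanog fell and Pou5f1 rose without overlap, this ratio was bound to part the groups.

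The regions just before the start sites of these 3 genes are shown because they are the factors whose mRNA changed, and because the network is known to bind its own genes. RefSeq promoters (GRCm38.p6) were matched for 8 of the 10 factors, Klf5 and Sall4 excepted. The 250 bases before the RefSeq start site nearest to the start of the highest transcript row are given 5′ to 3′. Capitals mark matches, on either strand, to TTTGCAT (the octamer core bound by OCT4), ACAATG (a SOX core), CACCC (the KLF core) or AAGGTCA (an extended site of ESRRB).
Nanog, chr6:122707315-122707564, plus strand: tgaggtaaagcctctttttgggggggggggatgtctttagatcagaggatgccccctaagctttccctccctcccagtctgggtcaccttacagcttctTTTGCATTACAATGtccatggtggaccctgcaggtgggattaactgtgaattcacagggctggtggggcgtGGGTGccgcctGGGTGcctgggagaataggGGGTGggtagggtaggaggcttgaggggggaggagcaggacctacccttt
Pou5f1, chr17:35505782-35506031, plus strand: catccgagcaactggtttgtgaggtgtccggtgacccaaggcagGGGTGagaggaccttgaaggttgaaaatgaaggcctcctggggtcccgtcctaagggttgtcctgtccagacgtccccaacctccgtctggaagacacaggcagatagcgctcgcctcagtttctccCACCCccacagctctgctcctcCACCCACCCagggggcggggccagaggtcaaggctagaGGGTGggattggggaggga
Sox15, chr11:69654787-69655036, plus strand: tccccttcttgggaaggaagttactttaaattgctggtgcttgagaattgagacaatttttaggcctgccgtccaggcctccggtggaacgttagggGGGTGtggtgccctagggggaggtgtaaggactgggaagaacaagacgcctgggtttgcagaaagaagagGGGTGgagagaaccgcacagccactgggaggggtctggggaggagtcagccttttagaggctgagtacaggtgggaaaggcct

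In the Nanog window, the octamer core lies at positions -151 to -145 from the start site and the SOX core at -143 to -138, 1 base apart. Together they form the composite element of OCT4 and SOX2, searched as TTTGCAT, any base, then ACAATG, which 2 of the 32851 windows of this length in the table hold. The octamer core alone is found in 4.12% of the windows, the SOX core in 10.7% and the ESRRB site in 4.08%, which none of the 3 windows shown holds. Among the other factors with a window, Sox2 holds the octamer core on the opposite strand, at -99 to -93. The Pou5f1 window holds 5 matches to CACCC, 2 of which share a base, and the Sox15 and Nanog windows hold 2 and 3, but 52.0% of all windows hold at least 1. For Sox15 and Sox2, the RefSeq start lies 277 and 410 bases before the start of the Ensembl model that was quantified. Both windows therefore belong to the RefSeq start. The last bases of the Nanog window lie within a longer annotated model of the gene. A match describes letters and not a bound site.

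Among the KLF factors, zinc finger proteins that bind CACCC boxes, Klf17 was the most abundant in both groups and none passed the test. Klf17, a factor of eggs and early embryos, stood at 32.0, 25.5, 31.9 and 34.5 FPKM in scrambled replicates 1 to 4 and at 31.8, 32.7, 35.7 and 36.6 FPKM in Med13 morpholino replicates 1 to 4. The groups overlapped, the log2 fold change was 0.14 ± 0.15 (SE; limma adjusted p = 0.545), and the 95% interval of the fold ran from 0.88 to 1.39. Its only row (GRCm38 chromosome 4, 117757836 to 117765648, minus strand) shares 9.3% of its 50-base stretches with Gm20690, which stood at 14.4 and 15.3 FPKM.

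Klf5, which acts in trophectoderm and inner cell mass alike, varied widely between collections. It stood at 8.67, 6.22, 17.3 and 17.2 FPKM in scrambled replicates 1 to 4 and at 4.98, 6.69, 6.58 and 11.7 FPKM in Med13 morpholino replicates 1 to 4. Scrambled replicates 3 and 4 were the highest and the groups overlapped. The log2 fold change was -0.60 ± 0.31 (SE; limma adjusted p = 0.203), and the 95% interval of the fold, 0.41 to 1.05, includes a fall by more than 2-fold as well as no change. With sample weights, which give less weight to libraries far from their group, Klf5 was called lower (log2 fold change -0.96, limma adjusted p = 0.00494), in a fit that called 36.9% of all genes.

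Klf4, one of the factors used to reprogram somatic cells, lay below all scrambled libraries in 3 of the 4 Med13 morpholino libraries. Its summed level was 9.70, 9.33, 6.11 and 8.69 FPKM in scrambled replicates 1 to 4 and 4.37, 4.76, 5.67 and 8.52 FPKM in Med13 morpholino replicates 1 to 4. Med13 morpholino replicate 4 lay among the scrambled values. The log2 fold change was -0.49 ± 0.20 (SE; limma adjusted p = 0.119), with a 95% interval of the fold of 0.52 to 0.97 before adjustment for the number of genes. Without replicate 4 of the Med13 morpholino group the gene was called lower (log2 fold change -0.66, limma adjusted p = 0.0291), as it was with sample weights (-0.47, 0.0425). In the highest rows, Klf17 made up 58.3% to 64.8% of the combined level of Klf4, Klf5 and Klf17 in scrambled libraries and 65.8% to 78.0% in Med13 morpholino libraries. How often such a share parts the groups for other genes was not computed. The ratio of Klf5 to Klf4 overlapped, at 0.81 to 3.14 in scrambled and 1.26 to 1.71 in Med13 morpholino libraries.

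Sall4 and Esrrb did not pass the test. Sall4, a zinc finger factor that occupies many of the sites of OCT4, stood at 29.6, 24.2, 33.9 and 36.3 summed FPKM in scrambled replicates 1 to 4 and at 29.7, 34.3, 38.2 and 48.4 FPKM in Med13 morpholino replicates 1 to 4. The groups overlapped (log2 fold change 0.27 ± 0.19 SE, limma adjusted p = 0.348, 95% interval of the fold 0.91 to 1.59). Of its 7 rows, 5 were tested and none was called, and the sum was 3.19 times the highest row, and isoforms share exons. Of its exonic bases, 9.5% are shared with Gm14261 on the opposite strand (0.13 and 0.24 FPKM). Esrrb, an orphan nuclear receptor of the network, stood at 3.94, 2.54, 4.77 and 3.95 summed FPKM in scrambled replicates 1 to 4 and at 3.37, 4.04, 4.97 and 6.03 FPKM in Med13 morpholino replicates 1 to 4. These groups overlapped too (log2 fold change 0.22 ± 0.19 SE, limma adjusted p = 0.456, 95% interval of the fold 0.87 to 1.56), and its 2 tested rows out of 6 were not called.

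**Figure D2:**
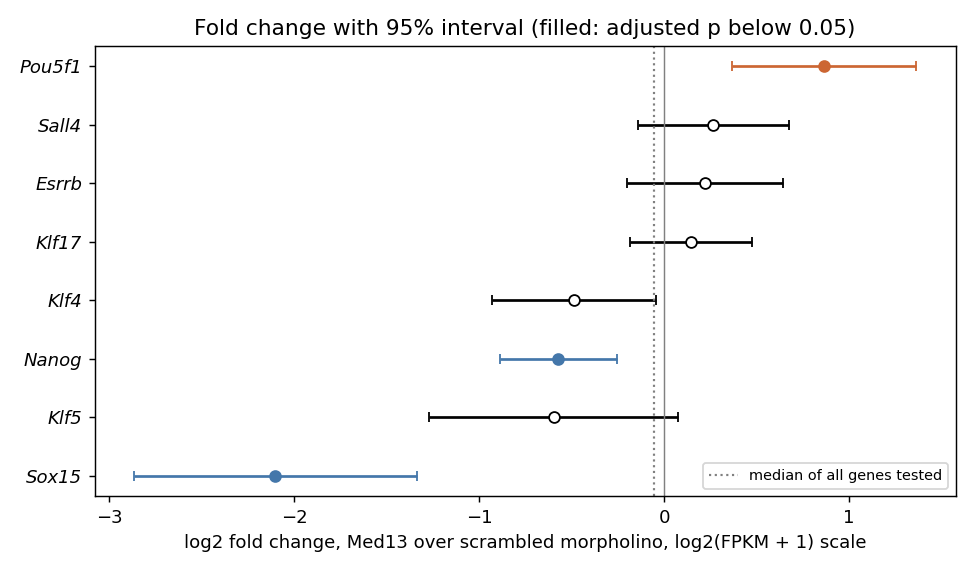
Log2 fold change of the 8 tested factors, Med13 over scrambled morpholino, on the log2(FPKM + 1) scale (horizontal axis), with limma's 95% interval, filled where the adjusted p was below 0.05. Sox15 (-2.10) lies far from the rest, Nanog (-0.57), Klf5 (-0.60) and Klf4 (-0.49) lie close together below 0, and Pou5f1 (0.86) lies above; the dotted line is the median of all genes tested (-0.06).

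Sox2 and Tfcp2l1 had mean summed levels of 0.53 and 0.76 FPKM and were not tested with the other genes. Sox2, the partner of OCT4 in stem cells, stood at 1.21, 0.65, 0.30 and 0.36 FPKM in scrambled replicates 1 to 4 and at 0.65, 0.50, 0.45 and 0.15 FPKM in Med13 morpholino replicates 1 to 4, on 14 to 93.5 fragments per library. The groups overlapped (difference in mean log2(FPKM + 1) -0.16, two-sided exact permutation p = 0.486 over 70 assignments). Tfcp2l1, a CP2 family factor of naive pluripotency, stood at 0.61, 0.54, 0.60 and 0.81 summed FPKM and at 0.46, 0.88, 0.69 and 1.46 FPKM in the same order, and the groups overlapped (difference 0.17, exact permutation p = 0.429). Its protein-coding row of 9269 bases, looked at after its values were seen, was 0.31 to 0.42 FPKM in scrambled and 0.43 to 0.80 FPKM in Med13 morpholino libraries, on 107.5 to 338 fragments. The groups did not overlap in that row, as in 7.61% of all transcript rows with a mean above 0 and under 1 FPKM (4.51% higher after Med13 morpholino). These shares include rows close to 0 and are not matched for level. The other Tfcp2l1 row, of 478 bases, varied more (SD 0.12 and 0.27 FPKM).

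The order of the factors, per length in the highest row of each, changed chiefly at Sox15. In scrambled embryos Klf17 came first (31.0 FPKM), then Sox15 (19.5), Klf5 (12.4), Sall4 (9.86) and Klf4 (7.26), and after a gap Esrrb (1.61), Nanog (1.58), Pou5f1 (1.27), Sox2 (0.63) and Tfcp2l1 (0.38). Between Klf4 and Esrrb the ranges over libraries did not overlap, and those of every other pair of neighbours in this order did. Within each scrambled library, however, Klf17 lay above Sox15 (Sox15 at 0.37 to 0.91 of Klf17), although their ranges over libraries overlapped. In Med13 morpholino embryos Klf17 was again first (34.2 FPKM), followed by Sall4 (11.6), Klf5 (7.48), Klf4 (5.04), Sox15 (3.50) and Pou5f1 (3.08), with Esrrb (1.82), Nanog (0.93), Tfcp2l1 (0.58) and Sox2 (0.44) below. Sox15 thus went from rank 2 to rank 5 and Pou5f1 from rank 8 to rank 6. In this group neighbours were parted by their ranges between Klf17 and Sall4 and between Esrrb and Nanog, and the other neighbours overlapped. Klf17 lay above 95.4% of the genes tested and Nanog above 26.0% by this measure. The order depends on the measure, because the highest row holds only part of the level of a gene with several rows. By summed FPKM, Sall4 stood beside Klf17 in scrambled embryos (31.0 FPKM each) and above it in Med13 morpholino embryos (37.6 against 34.2 FPKM), though its sum may count fragments more than once.

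**Figure D3:**
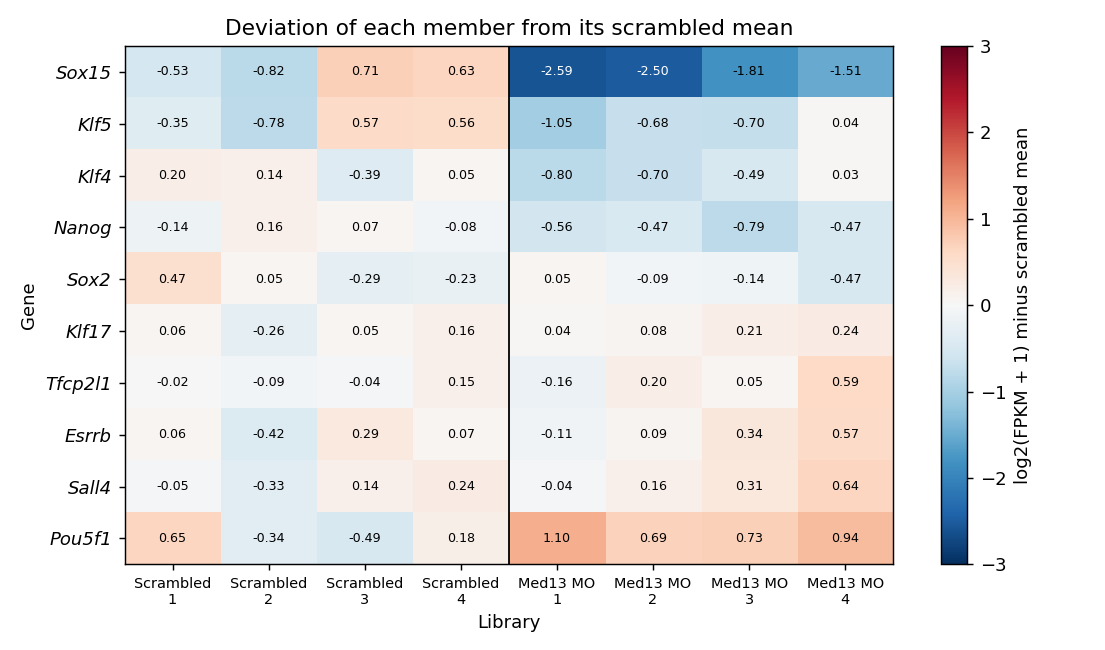
Difference of each factor in each library (columns) from its mean in scrambled embryos, on the log2(FPKM + 1) scale, blue for lower and red for higher. Sox15 is lower in all Med13 morpholino libraries (-2.59 to -1.51). Klf5, Sall4 and Esrrb have their highest Med13 morpholino value in replicate 4 (0.04, 0.64 and 0.57), as do Sox15, Klf4, Klf17 and Tfcp2l1.

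Within groups, some factors varied together. For each pair of tested factors, the deviations of the 8 libraries from their group means were correlated, as a description and with the set named after the values were seen. In the 10 pairs among Sox15, Klf5, Klf17, Esrrb and Sall4, Pearson's r was 0.81 to 0.94 over 8 libraries. In the 18 other pairs, which involve Nanog, Pou5f1 or Klf4, it was -0.56 to 0.41. The points share the libraries and their depth, and scrambled replicate 2 was the lowest of its group in all 5 genes of the set. In the Med13 morpholino group, replicate 1 was the lowest and replicate 4 the highest in all 5. Without scrambled replicate 2, r was 0.67 to 0.91 in the set and -0.60 to 0.74 in the other pairs. It was 0.80 to 0.95 and -0.62 to 0.73 without scrambled replicate 3. Without Med13 morpholino replicate 3 it was 0.80 to 0.98 and -0.90 to 0.41. Because the set was named after the values were seen, that choice favours its higher range over the other pairs. The map of deviations shows that this shared variation ran across the genes' own group differences: Sox15 fell while Sall4, Esrrb and Klf17 had higher means after Med13 morpholino.

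The genes whose pattern over the 8 libraries was most like that of a called factor were found by Pearson's r of log2(FPKM + 1), as a description that includes the difference between groups. For Sox15 they were the ubiquitin ligase gene Rnf168 (r = 0.998), the autophagy adaptor gene Tax1bp1 (0.990) and the RNA polymerase III initiation factor gene Bdp1 (0.989). Their log2 fold changes of -0.67, -0.82 and -0.75 were smaller than that of Sox15. The Rnf168 call was lost without scrambled replicate 3 or 4 or Med13 morpholino replicate 1 or 2 (limma adjusted p = 0.0503 to 0.0720), and the Bdp1 call without Med13 morpholino replicate 2 (0.0528). For Nanog they were Arhgap5 (0.972), Aldh6a1 (0.971) and Uqcrfs1 (0.968), all 3 called lower, though the Uqcrfs1 call (limma adjusted p = 0.0461) held with only 1 of the 8 libraries left out, Med13 morpholino replicate 4 (0.0583 to 0.142 otherwise). For Pou5f1 they were Gnas (0.972), Net1 (0.971) and Siah2 (0.971), of which Siah2 was called (log2 fold change 0.87, limma adjusted p = 0.0149). Gnas was called without scrambled replicate 1 (log2 fold change 0.65, limma adjusted p = 0.0393).

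Relatives of the factors showed both directions. Of 9 other KLF genes tested, 2 fell and none rose, beside 7.81% lower and 9.29% higher over all genes, with a median log2 fold change of -0.21. They were Klf11, a TGF-beta-responsive repressor, from 20.6 ± 4.05 to 11.9 ± 1.09 FPKM (SD, n = 4 each), and Klf10, from 2.03 ± 0.711 to 0.99 ± 0.263 FPKM. Their log2 fold changes were -0.73 (SE 0.17) and -0.59 (SE 0.18), with adjusted p of 0.0118 and 0.0387 by limma. Of 5 other POU genes tested, 2 rose and none fell (median 0.10), beside the same shares over all genes. They were Pou4f1 (log2 fold change 0.61) and Pou2f2 (0.49). In its highest row alone, Pou2f2 had a log2 fold change of 0.06 (limma adjusted p = 0.758). Its call was lost whichever of the 8 libraries was left out (limma adjusted p = 0.0546 to 0.106). The Pou4f1 call was lost without scrambled replicate 3 or Med13 morpholino replicate 1 (0.0529 to 0.0597), and that of Klf10 without scrambled replicate 3 or 4 or Med13 morpholino replicate 2, 3 or 4 (0.0751 to 0.106). None of 3 other SOX genes tested was called (median 0.05), with Sox13 at 5.90 ± 2.35 and 7.37 ± 1.92 FPKM and Sox12 at 2.91 ± 0.769 and 1.65 ± 0.601 FPKM (SD, n = 4 each). Sox12 was called lower without scrambled replicate 1 or Med13 morpholino replicate 4 (limma adjusted p = 0.0391 to 0.0404). The other SALL genes had no tested member. Of 4 CP2 and grainyhead genes tested none was called (median 0.02), with Ubp1 at 15.8 and 20.4 FPKM and Grhl2 at 10.6 and 9.26 FPKM.

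Among 44 other SOX, KLF, POU and network genes whose mean FPKM was above 0 and under 1, and which the main test left out, 8 were lower in every Med13 morpholino library than in any scrambled library and 2 were higher. Over all 23221 genes of that range, the shares were 2.87% lower and 3.58% higher. That range reaches down to genes close to 0, so these shares are not matched for level. Among the genes that were tested, 11.1% were lower and 10.4% higher without overlap. In limma's fit with no filter on low values, 2 of the 44 were called, both SOX genes and both named after their values were seen. Sox21, a SOX2-related repressor, was 0.60 to 1.23 FPKM in scrambled and 0.03 to 0.17 FPKM in Med13 morpholino libraries (log2 fold change -0.78 ± 0.14 SE, adjusted p = 0.0211). Its mean went from 0.92 to 0.11 FPKM, a change that the log2(FPKM + 1) scale understates. Sox11, a factor best known in neurons, was 0.80 to 1.28 FPKM and 0.28 to 0.36 FPKM (-0.56 ± 0.11 SE, adjusted p = 0.0337). Of all genes in that range, 0.702% were called in the same fit, a share likewise not matched for level. The network genes Tdgf1, the NODAL coreceptor, and Prdm14 did not overlap between groups either, Tdgf1 lower (0.90 to 1.96 against 0.28 to 0.68 FPKM, adjusted p = 0.0664) and Prdm14 higher (0.15 to 0.55 against 0.63 to 1.40 FPKM, adjusted p = 0.0796), and neither passed limma's test.

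Of 39 tested genes in the wider pluripotency network, 1 rose and 2 fell, beside the 17.1% called over all genes, and the median log2 fold change of -0.05 was near that of all genes. Tcl1, a coactivator of AKT that stem cells and eggs both express, went from 20.3 ± 6.05 to 68.6 ± 21.7 FPKM (SD, n = 4 each), a log2 fold change of 1.70 (SE 0.24; adjusted p = 0.00106 by limma). Dppa2, a chromatin-bound activator, and the nuclear receptor Nr5a2 fell (log2 fold changes -0.89 and -0.85), Nr5a2 being also the 1 called gene of 5 tested nuclear receptors related to Esrrb (median -0.34). The Nr5a2 call was lost without scrambled replicate 3 or Med13 morpholino replicate 2 (limma adjusted p = 0.0537 and 0.0535) and with no filter (0.0687). Nr2c2 of the same receptor list stood at 30.6 and 20.8 FPKM and was called lower without scrambled replicate 2 or Med13 morpholino replicate 4 (limma adjusted p = 0.0259 to 0.0350).

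In LIF-STAT3 and FGF-ERK signalling, the pathways that respectively sustain and dissolve pluripotency in stem cells, 2 of 23 tested genes rose and 1 fell, beside 9.29% and 7.81% over all genes, with a median log2 fold change of -0.02. Mapk3, the kinase ERK1, went from 3.05 ± 0.633 to 10.1 ± 3.09 FPKM, and Spry4, a feedback inhibitor of the pathway, from 14.7 ± 3.29 to 33.2 ± 9.22 FPKM (SD, n = 4 each). Their log2 fold changes were 1.42 and 1.11 (SE 0.22 each), with adjusted p of 0.00144 and 0.00629 by limma. The exchange factor Sos1 fell by 0.73 on the log2 scale, and its call held without scrambled replicate 2 or Med13 morpholino replicate 4 and was lost without any other library (limma adjusted p = 0.0595 to 0.0899). Of lineage genes that follow pluripotency, 1 of 5 tested trophectoderm genes fell, Tead4 (log2 fold change -0.93), beside 7.81% of all genes, and the median was -0.71. Tfap2c of that list stood at 16.1 and 12.8 FPKM. Neither of the 2 tested primitive endoderm genes was called, Gata4 at 21.8 and 26.6 FPKM and Dab2 at 5.28 and 7.85 FPKM.

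**Figure D4:**
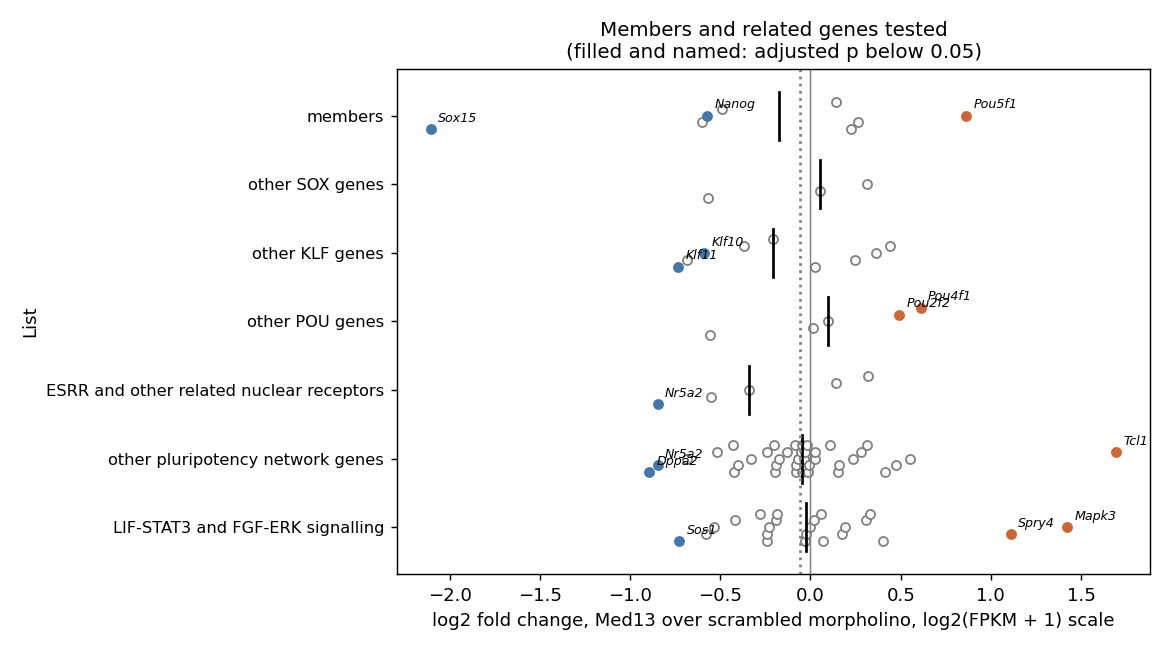
Log2 fold changes of the tested factors and of the tested genes of related lists (rows), Med13 over scrambled morpholino; filled points are called and named, black bars are list medians, the dotted line is the median of all genes. Sox15 (-2.10) is the lowest point plotted and Tcl1 (1.70) the highest.

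**Figure D5:**
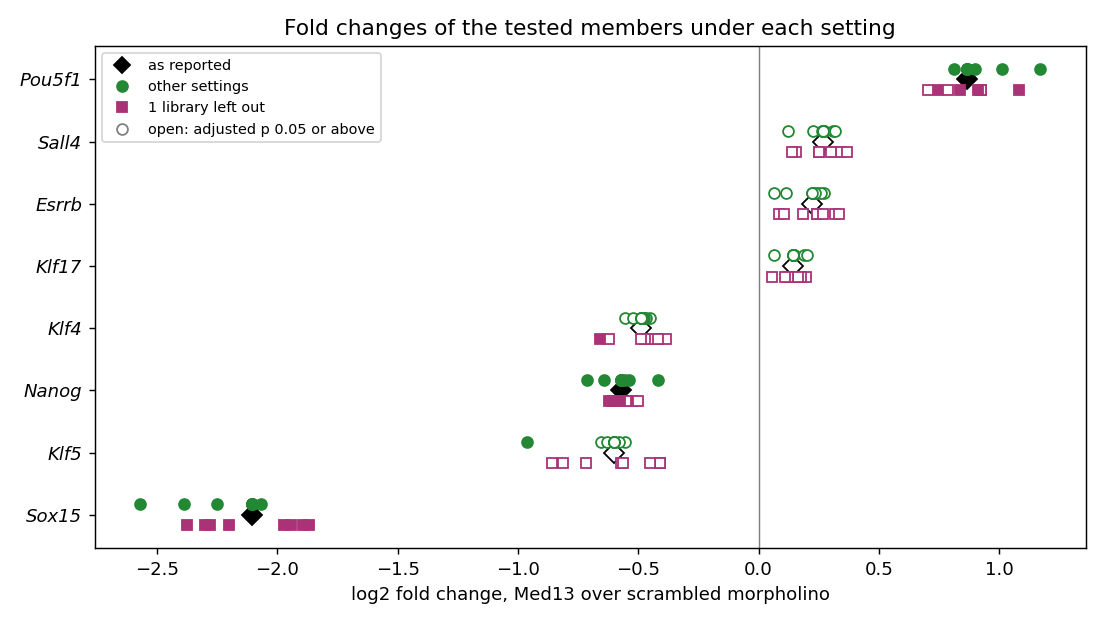
Log2 fold changes of the 8 tested factors as reported (diamonds), under other settings (circles) and with 1 library left out (squares), filled where the adjusted p was below 0.05. Sox15 stays filled throughout, Nanog and Pou5f1 each turn open in 3 of 8 left-out libraries, and no factor crosses 0.

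Across the 18 alternative settings, no tested factor changed direction, as the plot of fold changes under each setting shows. Sox15 was called in all 18. Klf17, Esrrb and Sall4 were called in none of those in which they were tested.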

How the data were processed

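FPKM values of 8 mouse embryo libraries, 4 per group, were used as the authors deposited them, 1 row per Ensembl transcript. Per the labels' protocols, amplified cDNA (Ovation RNA-Seq V2, 400 ng) went into TruSeq libraries. Per the submitters' processing notes, BWA and mm10 were used. Sources used here name no counting tool, annotation release, strand setting or isoform assignment. In 3758 of 97496 rows, those whose symbol holds a hyphen, values are moved by 1 column, and these were left out. No column was left unmatched to a sample.

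The 93738 other rows were summed per symbol. Genes reaching a mean FPKM of 1 entered limma 3.58.1 (R 4.3.3) as log2(FPKM + 1), with groups as the only term and a mean-variance trend. Folds given with an interval are ratios of FPKM + 1. Calls are two-sided with a Benjamini-Hochberg adjusted p under 0.05. The fit was checked on simulated data in which genes vary independently. That check does not cover variation that the genes of a library share. Single values were tested by exact permutation. Fragments were computed from FPKM, GENCODE M21 transcript length and library total. Of values up to 20 fragments, 94.3% to 94.4% were multiples of 0.5 within 0.005. The amplified reads carry no molecular identifiers, so these figures bound counting error only.

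Named genes were the 10 factors, Med13, at most 4 called genes a list in order of adjusted p (abundant members completing a pair), and the 3 genes most alike each called factor, clone names left out. The factors and lists were chosen with earlier results of these data known, and 1 listed gene is not reported here and was left out of its list's counts. Alternatives covered the pseudocount, the filter, scaling, the transcript rows used, sample weights, the trend and leaving out each library.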

Additional observations from a re-analysis of the deposited data

How the results depend on the processing

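The count of factors called was 3 as reported, 1 at a mean FPKM of at least 5 (where 5 factors were tested), 2 with no filter, 5 with sample weights and 3 in the other settings that kept all libraries. With 1 library left out it ran from 1 to 4, with 1 without scrambled replicate 3 and 1 without Med13 morpholino replicate 2. The count of genes called was 2010 as reported, 1012 with no filter, 1137 at a mean FPKM of at least 5, 4336 with sample weights, and 956 to 2404 with 1 library left out. The causes were not tested, beyond the fewer genes or libraries in some fits. The Med13 log2 fold change turned to -0.0245 with sample weights and ran from -0.00105 to 0.101 with 1 library left out, and the Cd52 log2 fold change ran from -0.19 to 0.26. Median-ratio scaling and quantile normalization moved the median of all genes by 0.04 and 0.01 on the log2 scale. No paired analysis was run. The labels give each library a number of its own and name no pairs. Those numbers alternate between the groups, but no label says that neighbouring numbers share a collection. Whether a pairing by neighbouring numbers would change the errors given here was not tested. Low FPKM limits Sox2, Tfcp2l1, Nanog and Pou5f1.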
